A study of Mus musculus with 6 samples.

Results

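The smooth muscle contractile genes of the mouse lung were taken as 10 genes chosen by name: Acta2, Myh11, Tagln, Cnn1, Des, Actg2, Lmod1, Mylk, Myocd and Smtn. They were chosen with earlier results of these data known, so their shares beside those of all genes are a description only. They are 10 of the 56262 genes in the count table, and all 10 were among the 17120 genes that passed the filter on low counts and were tested. RNA was sequenced from lung tissue of 3 R/R mice and 3 WT littermates, 6 libraries in all. R/R mice carry the K329R and K332R substitutions in both copies of Rbm47, made with CRISPR/Cas on the C57BL/6 background, and WT mice carry the unedited gene. RBM47 is an RNA-binding protein, and the study asked what its ISGylation, the attachment of the ubiquitin-like protein ISG15 at these lysines, does in the lung. All mice were 8 weeks old and untreated, and the substitutions are present in every tissue of the R/R mice. The libraries held 16501092 to 18141067 read pairs assigned to genes. Levels are given as CPM, a gene's read pairs relative to its library's total over the tested genes, that total scaled by edgeR's TMM factor. Nothing in the gene counts shows the substitutions themselves. Rbm47 stood at 33.4 ± 0.712 CPM in R/R and 31.2 ± 2.89 CPM in WT lungs (mean ± SD, n = 3 each), a log2 fold change of 0.10 (adjusted p = 0.660).

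Smooth muscle in the lung wraps the airways, arteries and larger veins. Its cells shorten when myosin filaments pull on actin filaments, a step switched on when calcium and calmodulin activate myosin light chain kinase, which phosphorylates the regulatory light chain of myosin. Most genes of this machinery are read under the control of serum response factor (SRF) and its partner myocardin, which act at a DNA element called the CArG box.

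The 10 genes cover the parts of that machinery. Acta2 encodes the alpha smooth muscle actin of the thin filament and Actg2 its gamma form. Myh11 encodes the smooth muscle myosin heavy chain. Cnn1 (calponin), Tagln (transgelin, SM22) and Smtn (smoothelin) encode actin-bound proteins, and Lmod1 (leiomodin) encodes a factor that starts actin filaments. Mylk encodes myosin light chain kinase, Des the intermediate filament protein desmin, and Myocd myocardin itself.

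Because the actins resemble each other, the coding sequences of Acta2 and Actg2 are shown over the stretch that holds their longest shared run. Across the 1131 coding bases of Actg2-201, 83.8% matched Acta2-201, and the longest run without a difference was 29 bases, against reads of 150 bases. The heart actin gene Actc1 and the skeletal actin gene Acta1 matched Acta2 at 82.5% and 85.4% of bases, with longest shared runs of 23 and 29 bases. In the 59 bases below, from coding base 622 of Acta2-201 and coding base 619 of Actg2-201 in the GENCODE M21 transcripts, written 5′ to 3′, capitals mark the 9 bases that differ.
Acta2: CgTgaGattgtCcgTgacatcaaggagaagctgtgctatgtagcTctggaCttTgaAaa
Actg2: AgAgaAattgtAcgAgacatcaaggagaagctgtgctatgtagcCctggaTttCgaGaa

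The promoter of Acta2 is shown because it was the only one of the 6 member promoters in the RefSeq table (GRCm38.p6; Acta2, Cnn1, Des, Lmod1, Mylk and Smtn) with a CArG-like element close to its start. The 250 bases before the start were searched on both strands for the CArG box, whose middle 6 bases are all A or T. A looser form with exactly 1 G or C among them was searched for separately. The strict form was found in none of the 6 members and in 1.47% of all 32851 promoters of that length. The loose form was found in 1 of the 6 members and in 7.24% of all promoters. Acta2 held 2 of these, ending 75 and 25 bases before the start. They are in capitals in chr19:34255378-34255477 (GRCm38, minus strand), written 5′ to 3′.
Acta2 promoter: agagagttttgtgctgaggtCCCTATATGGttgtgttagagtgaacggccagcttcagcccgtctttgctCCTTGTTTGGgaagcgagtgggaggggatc
The element CATTCC, which TEAD factors bind, was found on either strand in 4 of the 6 members (Acta2, Lmod1, Mylk and Smtn) and in 12.6% of all promoters. These matches describe letters in the window only. The binding of a factor was not measured.

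To compare levels between genes, counts were divided by exon length as well as library size (RPKM) and averaged over the 6 lungs. Acta2 was highest at 76.2 ± 14.6 RPKM (SD over 6 lungs), followed by Mylk at 48.9 ± 4.34, Des at 35.2 ± 3.65 and Myh11 at 23.5 ± 3.17. The ranges of these genes over the lungs did not overlap between neighbors. Smtn followed at 19.2 ± 0.961, and its range met those of Myh11 above it and Actg2 below it. Actg2 and Cnn1, at 12.5 ± 2.88 and 12.5 ± 4.83 RPKM, could not be ordered. Cnn1 ranged from 9.10 to 22.1 RPKM, which also met the ranges of Smtn and Myh11. The ranges of the members below them did not overlap. Lmod1 was at 4.23 ± 0.624, Tagln at 1.41 ± 0.259 and Myocd, a transcription factor gene, at 0.335 ± 0.0506 RPKM.

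Tagln stood far below the other actin-bound genes, with only 37 to 63 read pairs per library. Its neighbor in the family, Tagln2, had 7730 to 9327 read pairs per library. The exons of Tagln (chromosome 9, 45929619 to 45936058, minus strand of GRCm38) share 67.9% of their bases with exons of genes on the opposite strand. Gm48529 covers 1241 bases (62.4%) and Pcsk7 108 bases (5.43%). Read pairs that fall in exons of 2 genes were not counted for either, since the counting used no strand. Of the spliced transcript Tagln-201, 985 of 1595 bases lie under those exons. The part this has in the low level of Tagln was not tested, and its values describe the remaining exon bases only. Of the other members, Smtn shares 16.3%, Mylk 6.85% and Des 5.86% of exon bases with another gene, and 6 members share none.

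**Figure D1:**
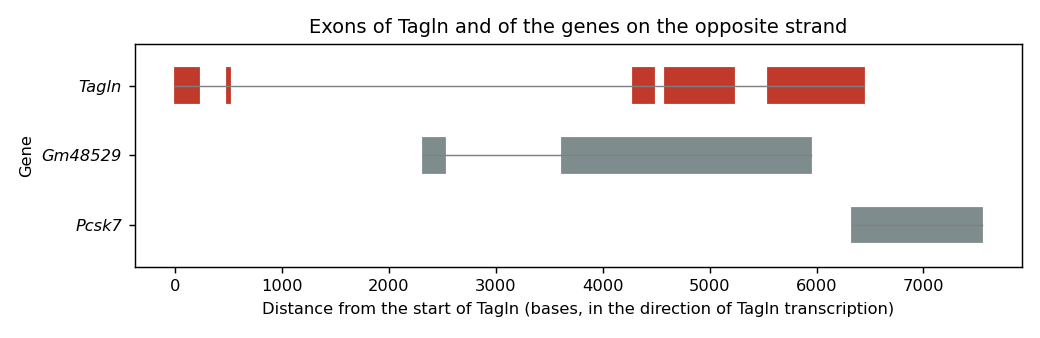
Exons (boxes) of Tagln and of the genes whose exons overlap them on the opposite strand, against distance in bases from the start of Tagln. The long exon of Gm48529 lies over 3 of the 5 exon blocks of Tagln, whole or in part, and Pcsk7 over the end of the last.

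No smooth muscle contractile gene passed the test between genotypes. By edgeR's quasi-likelihood test with Benjamini-Hochberg adjustment, 0 of 10 members had an adjusted p below 0.05, against 1.75% of all genes tested (300 of 17120). At an unadjusted p below 0.05 the count was 2 of 10, Des and Mylk, against 14.2% of all genes. DESeq2 and edgeR's exact test each called 1 member (Des) and limma-voom called 0, with 2 at an unadjusted p below 0.05 by each tool. The point estimates lay below 0 (lower in R/R) for 9 of 10 members, against 48.8% of all genes, with a median log2 fold change of -0.20 against 0.00 over all genes. Without WT replicate 3 the point estimates lay below 0 for 7 of 10 members with a median of -0.03, and with any other lung left out for 8 or 9 of 10 with medians from -0.28 to -0.12. The members share cells and libraries, so these 10 estimates are not 10 independent observations. In bulk lung tissue, fewer smooth muscle cells and less RNA per cell cannot be told apart.

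**Figure D2:**
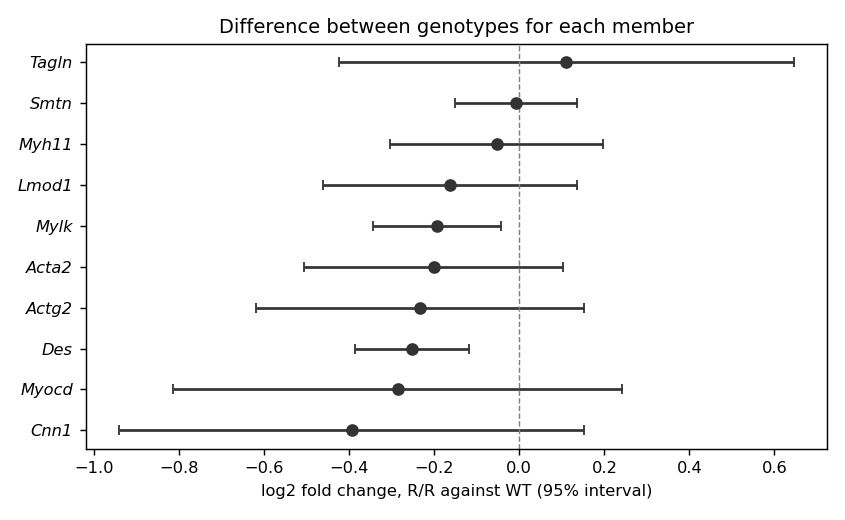
Log2 fold change of each member, R/R against WT (point), with its 95% interval from edgeR's quasi-likelihood fit (3 lungs per genotype). The intervals of Des and Mylk lie below 0 before adjustment, and the other 8 include 0.

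Des and Mylk were the members whose genotypes did not overlap. Des, which ties the contractile bundles to each other and to the cell membrane, was at 117, 129 and 116 CPM in the R/R lungs and 146, 139 and 147 CPM in the WT lungs. The genotypes did not overlap, with R/R the lower, and the WT lungs lay close together. The log2 fold change was -0.25 (SE 0.06, 95% interval -0.39 to -0.12), with a p of 0.00146 and an adjusted p of 0.0668 in edgeR. DESeq2 gave an adjusted p of 0.0229 and edgeR's exact test 0.0217. An exact permutation test of the 6 values gave p = 0.1, two-sided, the smallest that 3 lungs against 3 allow.

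Des is also read in heart muscle, and heart transcripts varied widely among these lungs. The heart muscle myosin gene Myh6 was at 3.16, 14.5 and 29.7 CPM in R/R and 56.3, 98.3 and 1.76 CPM in WT lungs. In WT replicate 3, the lung with the least Myh6, Des was at 147 CPM. Over the list of 16 cardiac muscle genes, the summed level was 121 to 194 CPM in R/R and 133 to 347 CPM in WT lungs, 14 were tested and 0 were called by edgeR (7 at an unadjusted p below 0.05). Like Des, 13 of the 14 had a log2 fold change below 0, with a median of -1.08. DESeq2 and the exact test each called 1 of them, the myosin gene Myh7, which was higher in R/R (log2 fold change 0.50), and limma-voom called 0. Leaving out WT replicate 3 brought the edgeR count to 8, all lower in R/R, and the log2 fold change of Des was then -0.24 with an adjusted p of 0.0910. The part of heart muscle RNA in the level of Des was not tested.

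Mylk was at 546, 474 and 521 CPM in R/R and 611, 588 and 562 CPM in WT lungs. The lowest WT lung was just above the highest R/R lung. The log2 fold change was -0.19 (SE 0.07, 95% interval -0.34 to -0.04), with a p of 0.0166 and an adjusted p of 0.218 in edgeR, and the exact permutation p was again 0.1. Mylk is also read in cells other than smooth muscle, and its longer product is made in endothelium. Complete separation with R/R the lower was thus seen in 2 of 10 members, against 9.5% of all genes, and with R/R the higher in 0 of 10, against 9.17%.

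The thin and thick filament genes overlapped between genotypes. Acta2 was at 133, 161 and 172 CPM in R/R and 165, 146 and 226 CPM in WT lungs. WT replicate 3 stood above the rest and R/R replicate 1 below them. The log2 fold change was -0.20 (SE 0.14, 95% interval -0.51 to 0.10) with an adjusted p of 0.575. With 1 lung left out it lay between -0.33, without WT replicate 2, and -0.00022, without WT replicate 3. Myh11 was at 156, 168 and 201 CPM in R/R and 179, 154 and 213 CPM in WT lungs, where the highest and the lowest lung were both WT. Its log2 fold change was -0.05 (95% interval -0.30 to 0.20) with an adjusted p of 0.893. Actg2 was at 15.2, 19.5 and 18.9 CPM in R/R and 19.7, 15.7 and 27.7 CPM in WT lungs, a log2 fold change of -0.23 (95% interval -0.62 to 0.15) with an adjusted p of 0.619. The interval was narrower for Myh11, the more abundant gene, than for Actg2.

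Among the actin-bound regulators, Cnn1 had the widest spread of the 10 members. It was at 26.0, 29.5 and 33.0 CPM in R/R and 31.0, 24.9 and 60.4 CPM in WT lungs. The third WT lung held 2.16 times the mean of the other WT lungs, which sat among the R/R values. The log2 fold change was -0.39 (SE 0.25, 95% interval -0.94 to 0.15) with an adjusted p of 0.533, and it was 0.08 without that lung. With no filter on low counts edgeR called Cnn1, with an adjusted p of 0.00113.

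Lmod1 was at 13.3, 17.5 and 16.6 CPM in R/R and 17.9, 14.7 and 20.3 CPM in WT lungs, a log2 fold change of -0.16 (adjusted p = 0.664) that was -0.05 without WT replicate 3 or R/R replicate 1. Smtn was the steadiest member, at 84.7, 77.8 and 89.1 CPM in R/R and 83.1, 88.2 and 81.7 CPM in WT lungs. The highest and the lowest lung were both R/R, and the highest was 1.14 times the lowest. Its log2 fold change was -0.01 with a 95% interval of -0.15 to 0.14 and an adjusted p of 0.979. Tagln, in the exon bases left to it, was at 3.50, 2.75 and 2.47 CPM in R/R and 3.34, 2.59 and 2.17 CPM in WT lungs, a log2 fold change of 0.11 (95% interval -0.42 to 0.65) with an adjusted p of 0.897.

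Myocd, the coactivator, was the least abundant member in CPM. It was at 1.72, 1.85 and 2.24 CPM in R/R and 2.19, 2.26 and 2.63 CPM in WT lungs, from 31 to 45 read pairs per library. The lowest WT lung was just below the highest R/R lung. The log2 fold change was -0.29 (SE 0.24, 95% interval -0.81 to 0.24) with an adjusted p of 0.665.

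**Figure D3:**
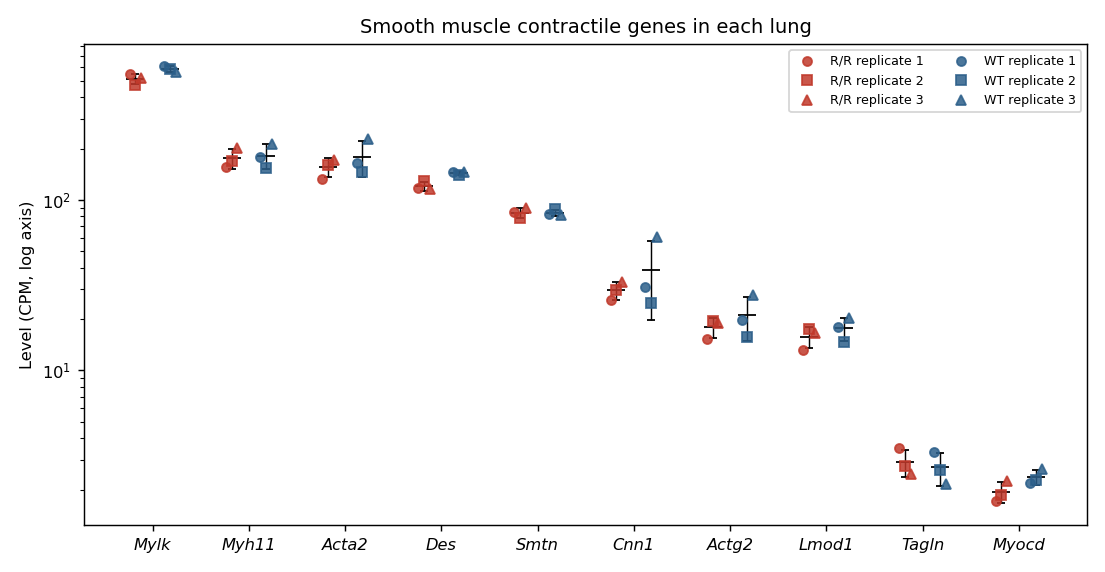
Level of each member in each lung in CPM on a log axis, with R/R in red and WT in blue, the marker shape giving the replicate, and bars the mean ± SD of 3 lungs. Des and Mylk show no overlap between genotypes, and WT replicate 3 stands apart for Cnn1, at 60.4 CPM.

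One lung set much of the spread within the members. WT replicate 3 was the highest of the 6 lungs in 7 of 10 members (Acta2, Myh11, Cnn1, Des, Actg2, Lmod1 and Myocd), against 14.2% of all genes tested. Its level over the mean of the other WT lungs was 2.16 for Cnn1, 1.57 for Actg2, 1.46 for Acta2, 1.28 for Myh11, 1.24 for Lmod1 and 1.18 for Myocd. Des was at 1.03 and Smtn, Mylk and Tagln at 0.954, 0.938 and 0.730. It was highest in 2 of 20 of the other contractile genes listed below, 0 of 12 pericyte genes and 4 of 10 fibroblast genes. The median ratio to the other WT lungs was 1.01, 0.960 and 1.04 in these lists, 1.21 in the members and 1.49 in the 6 mesothelium genes.

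Some airway genes were also high in WT replicate 3. Scgb3a2, a secretory product of airway cells, was at 335 CPM there against 187 and 192 CPM in the other WT lungs and 148 to 245 CPM in R/R lungs. Foxj1, which directs ciliated cells, was at 66.7 against 48.0 and 48.3 CPM, with 42.8 to 58.9 CPM in R/R lungs. These were the 2 of 8 lung epithelium genes that were highest in that lung, and both were picked after their values were seen. Scgb1a1, another airway secretory gene of that list, was not highest there. The median ratio of the 8 genes to the other WT lungs was 1.25. Their summed level in that lung, 35510 CPM, lay within the range of the R/R lungs, 35013 to 38208 CPM. That sum also holds alveolar genes such as Sftpc, so it does not measure airway content. Of the large airway cartilage genes, 1 of 3 was highest there, with a median ratio of 1.05. The part of tissue sampling in these levels was not tested. R/R replicate 1 was the lowest lung in 4 of 10 members, and its median deviation from the 6-lung mean was -0.24 on the log2 scale, against 0.28 in WT replicate 3.

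**Figure D4:**
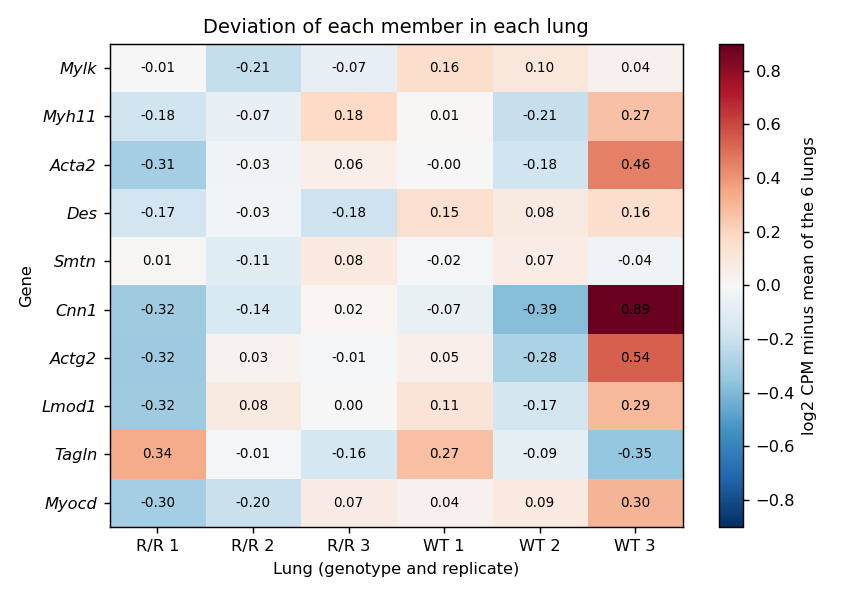
Deviation of each member in each lung from its mean over the 6 lungs, in log2 CPM, with red above and blue below the mean. WT replicate 3 holds the highest value for 7 of 10 members, with Cnn1 at 0.89, and R/R replicate 1 lies below the mean for 8 of 10 members, the exceptions being Tagln and Smtn.

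The genes whose pattern over the 6 lungs was closest to the mean of the standardized members were Vtcn1 (Pearson r = 0.995), Pfkl (0.989), Gm32633 (0.986), Tmco4 (0.984), Edaradd (0.979), Ints14 (0.978), Pde3b (0.978), Gm20605 (0.973), Dvl1 (0.971) and Nr6a1 (0.971). Without R/R replicate 1 and WT replicate 3, the lungs farthest from the median, r was between 0.912 for Edaradd and 0.985 for Vtcn1 over the remaining 4 lungs. These were the highest of 17110 genes over 6 lungs that share their library with the members, and are given as a description. None of the 10 belongs to the gene lists used here.

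Other genes of the same cells were taken from lists. Of 20 further filament, dense body and adhesion genes of smooth muscle, 0 of 20 were called, with 3 at an unadjusted p below 0.05 and a median log2 fold change of -0.03. DESeq2 and the exact test each called 1 of them, Fhl1, and limma-voom called 0. Fhl1, a LIM domain protein of muscle, was lowest at -0.26 (adjusted p = 0.0690) and had every R/R lung, at 673 to 717 CPM, below every WT lung, at 809 to 874 CPM. Pdlim7, an adaptor at actin bundles, was next at -0.21 (adjusted p = 0.374). Pdlim3, an alpha-actinin partner, and the intermediate filament gene Vim had the highest log2 fold changes, 0.26 (adjusted p = 0.228) and 0.09 (adjusted p = 0.558).

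Among 19 tested genes of 20 that set smooth muscle tone and calcium handling, 1 was called and lower in R/R (background 1.1% of all genes), with 6 at an unadjusted p below 0.05. It was the nitric oxide receptor subunit gene Gucy1a1. Gucy1a1 was at 364, 355 and 306 CPM in R/R and 463, 457 and 401 CPM in WT lungs. Every R/R lung lay below every WT lung. The log2 fold change was -0.36 (SE 0.08) with an adjusted p of 0.0462 in edgeR, and leaving out any lung except WT replicate 3 took it above 0.05, up to 0.181. The list's median was -0.04. The calcium pump regulator gene Sln had the lowest value, -1.98 (adjusted p = 0.281), and is also a gene of atrial muscle that was at 0.176 CPM in WT replicate 3 against 2.31 and 4.19 CPM in the other WT lungs. The potassium channel subunit gene Kcnmb1 and the cGMP kinase substrate gene Mrvi1 were highest, at 0.20 (adjusted p = 0.734) and 0.17 (adjusted p = 0.680).

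Receptors that set smooth muscle tone held 2 called genes among 13 tested of 14, both lower in R/R (background 1.1% of all genes). The thromboxane A2 receptor gene Tbxa2r fell from 23.7, 28.1 and 21.3 CPM in WT lungs to 15.8, 13.6 and 11.8 CPM in R/R lungs, with no overlap. Its log2 fold change was -0.83 (SE 0.13, adjusted p = 0.0115), and without R/R replicate 2 the adjusted p was 0.0629. The alpha-1A adrenergic receptor gene Adra1a was at 29.3, 28.2 and 21.4 CPM in R/R and 39.6, 38.4 and 34.1 CPM in WT lungs, a log2 fold change of -0.50 (SE 0.11, adjusted p = 0.0479). Leaving out 1 lung kept that call in 2 of 6 fits, with adjusted p values up to 0.184. Adra1b, a related receptor, was at -0.60 (adjusted p = 0.159). The serotonin receptor gene Htr2b and the muscarinic acetylcholine receptor gene Chrm3 were highest at 0.48 (adjusted p = 0.744) and 0.39 (adjusted p = 0.591).

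Of 18 regulators of the contractile genes, among them SRF, its partners and Notch signaling genes, 0 were called, with 4 at an unadjusted p below 0.05. DESeq2 and the exact test each called 2 of them, Heyl and Notch3, and limma-voom called 0. Srf itself was at 0.20 (adjusted p = 0.331) and the Notch ligand gene Jag1 at 0.18 (adjusted p = 0.420). The lowest log2 fold changes were those of the Notch target genes Heyl, at -0.31 (adjusted p = 0.0620), and Hey2, at -0.30 (adjusted p = 0.431). The R/R lungs were below every WT lung in both. Notch3, the Notch receptor of vascular smooth muscle and pericytes, was at -0.27 (adjusted p = 0.0558).

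Cells that lie beside smooth muscle were followed by lists of marker genes, which are not all read in those cells only. Pericytes, the mural cells of capillaries, had 12 listed genes with summed levels of 847 to 898 CPM in R/R and 1001 to 1117 CPM in WT lungs. Of these, 7 of 12 separated with R/R the lower (9.5% of all genes), 8 had an unadjusted p below 0.05 (14.2% of all genes) and 1 was called, lower (1.1% of all genes). DESeq2 and the exact test each called 4, and limma-voom called 1. That gene, the growth factor receptor Pdgfrb, was at 302, 313 and 289 CPM in R/R and 415, 397 and 355 CPM in WT lungs (log2 fold change -0.37, SE 0.07, adjusted p = 0.0268), and it was called in 1 of 6 fits that left out a lung. Rgs5, a regulator of G protein signaling, was at -0.36 (adjusted p = 0.354). The channel genes Kcnj8 and Abcc9 were at 0.23 (adjusted p = 0.673) and 0.18 (adjusted p = 0.549). The pericyte list shares Notch3, which is also read in vascular smooth muscle, with the regulators. Changes in the list thus cannot be assigned to pericytes alone. The list was chosen with earlier results of these data known, so its shares are a description only.

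Among markers of airway smooth muscle and myofibroblasts, 1 of 8 was called, and it was higher in R/R (background 0.648% of all genes). Hhip, an inhibitor of hedgehog signals, was at 73.9, 86.1 and 76.3 CPM in R/R and 60.1, 60.1 and 57.8 CPM in WT lungs (log2 fold change 0.41, SE 0.07, adjusted p = 0.0169). The genotypes did not overlap, and leaving out 1 lung kept the call in 3 of 6 fits. Enpp2, which encodes the enzyme autotaxin, was next at 0.18 (adjusted p = 0.352). Lgr6 and Mustn1 were lowest, both at -0.18, with adjusted p values of 0.658 and 0.370.

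Of the remaining marker lists (background 1.75% of all genes called by edgeR), fibroblasts had 1 of 10 genes called by edgeR (Mfap4, -1.44, adjusted p = 0.00193) and 2 by each other tool (Mfap4 and Npnt), with sums of 5998 to 6826 CPM in R/R and 7828 to 8313 CPM in WT lungs. Mesothelium had 1 of 6 called by edgeR (Lrrn4, 1.01, adjusted p = 0.0124), 3 by DESeq2, 5 by the exact test and 1 by limma-voom. All 6 had log2 fold changes above 0, with a median of 0.79 and 5 at an unadjusted p below 0.05, and sums of 246 to 319 CPM in R/R and 168 to 242 CPM in WT lungs. Skeletal muscle (4 of 11 tested), large airway cartilage (3 of 8), oesophageal epithelium (1 of 7), Schwann cells (6 of 7), endothelium (8 of 8) and lung epithelium (8 of 8) had 0 called by edgeR, with 0, 0, 0, 2, 1 and 4 genes at an unadjusted p below 0.05. Among these 6 lists DESeq2 called Prx of the Schwann cell list and Sftpc and Hopx of the lung epithelium list. The exact test called Prx and Hopx, and limma-voom called 0. Bulk lung counts do not show which cells held the RNA of a listed gene, so the Prx call cannot be assigned to Schwann cells. The part of these cell types in the members' levels was not tested.

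**Figure D5:**
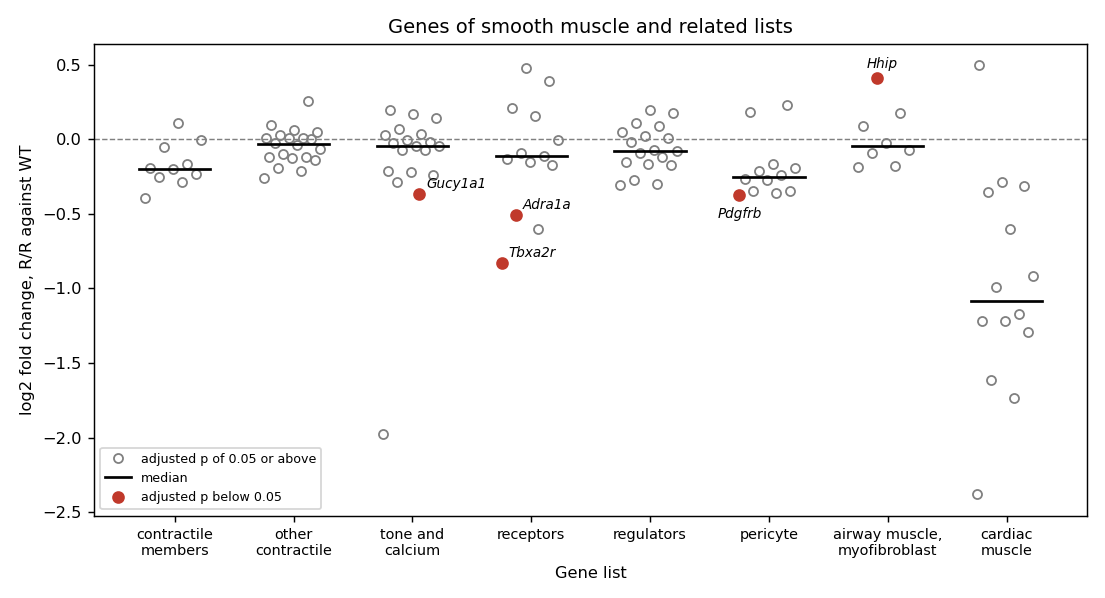
Log2 fold change, R/R against WT, of each tested gene in the members and in 7 other gene lists (points, filled where edgeR's adjusted p was below 0.05), with the median of each list as a bar. The members and the other contractile genes have no filled point, the called receptor, tone and pericyte genes lie below 0, and Hhip lies above 0.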

How the data were processed

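The deposited file holds raw counts, which the authors made with HISAT2 2.1.0 on mm10 (GRCm38) and featureCounts 2.0.1 over GENCODE exons. Pairs that mapped to several places or overlapped several genes were not counted, and no strand option was used. The column of 1 lung was entered here as estimated counts, yet the authors deposited whole numbers from featureCounts there too, and nothing was rounded. That entry, for WT replicate 3, does not describe the deposited column, which holds raw counts like the others. The labels also name DESeq2. Gene symbols came from GENCODE M21 by gene ID (55227 of 56262 matched).

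Genes passing filterByExpr (minimum count 10, total 15) were tested with edgeR 4.0.16 (TMM, quasi-likelihood, Benjamini-Hochberg adjusted p below 0.05), R/R against WT, 3 lungs each. All adjusted p values are from that test unless another tool is named. Alternatives used DESeq2 1.42.0, limma 3.58.1, other scalings and filters, and each lung left out. The fit was checked on simulated data. CPM used library totals over the tested genes, scaled by the TMM factors. Replicates differed beyond counting error. The labels tell the replicates of a genotype apart by number only. The p values thus measure the spread between lungs, which holds differences between mice and any in sampling or preparation. Totals of 16501092 to 18141067 pairs left the least counted member, Myocd, with 31 to 45 pairs per library.

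The members and the lists were chosen with earlier results of these data known. Named genes were the members, called genes of each list, the highest and lowest log2 fold changes of the smooth muscle, pericyte and airway muscle lists, the 10 genes most correlated with the members, and Rbm47. A few listed genes are not reported here and stay out of their lists' counts. Of the lists of other cell types, only genes that were called or that bear on a member are named. Des was also described beside heart genes because both are read in muscle.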

Additional observations from a re-analysis of the deposited data

How the results depend on the processing

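Of 150 log2 fold changes of members under alternatives, 138 kept their direction and side of the threshold, 4 passed it and 8 reversed. Without WT replicate 3, Cnn1 was at 0.076, Actg2 at 0.014, Myh11 at 0.073 and Tagln at -0.026. Without R/R replicate 1, Myh11 was at 0.021 and Tagln at -0.048. Smtn was at 0.044 without R/R replicate 2 and 0.025 without WT replicate 2. With 1 lung left out, Acta2 ranged from -0.33 to -0.00022, Lmod1 from -0.28 to -0.053, Myh11 from -0.16 to 0.073, Tagln from -0.048 to 0.29, Cnn1 from -0.64 to 0.076, Actg2 from -0.41 to 0.014 and Smtn from -0.053 to 0.044. Genes called, of all tested, numbered 300 by edgeR, 530 by DESeq2, 630 by the exact test, 1109 with no filter, 548 at an adjusted p of 0.1, 40 at 0.01, and 65 to 621 with 1 lung left out. Members called were 0, and 1 by DESeq2, 1 by the exact test and 1 at 0.1 (Des each time), 2 with no filter (Cnn1 and Des) and 0 to 0 with 1 lung left out. Other contractile genes called were 1 by DESeq2, the exact test, no filter and 0.1, and 0 to 1 with a lung left out. Tone genes were 2 by DESeq2, 5 with no filter, 0 at 0.01 and 0 to 4 with a lung left out. Receptors were 1 by limma-voom and with the CPM filter, 0 at 0.01 and 0 to 2. Regulators were 2 by DESeq2, the exact test, no filter and 0.1, 1 among protein-coding genes and 0 to 2. Cardiac genes were 1 by DESeq2 and the exact test, 11 with no filter and 0 to 8. The cause of these shifts was not tested.

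With the replicate number as a block, 0 members, 1 cardiac gene and 446 genes in all were called. After each gene's genotype mean was taken off, the deviations of same-numbered lungs correlated at -0.014, -0.004 and -0.015 over the tested genes. With 3 lungs per genotype these values cannot decide whether same-numbered lungs were paired. Depth limits Tagln and Myocd most, with 31 to 63 read pairs per library.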
